A study of Mus musculus with 16 samples.

Results

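Adult neurogenesis was followed through 9 genes chosen by name: Mki67, Top2a, Eomes, Neurod1, Dcx, Sox4, Sox11, Igfbpl1 and Calb2. All 9 were found among the 35328 genes of the count table by their Ensembl identifiers, and all 9 were among the 17830 genes that passed the filter on low counts and were tested. The RNA-Seq libraries came from dorsal hippocampi of 16 male C57Bl6/J mice, 4 in each of 4 groups. Resting mice made up the groups home cage water (HC_water) and home cage caffeine (HC_Caffeine), and trained mice the groups learning water (MWM_water) and learning caffeine (MWM_Caffeine). Caffeine was given in the drinking water at 0.3 g/L for 2 weeks from an age of 8 to 9 weeks, and control mice drank plain water. Learning mice trained for 3 days in the Morris water maze, a spatial task in which a hidden platform is found from landmarks, and their tissue was taken 1 hour after the last session. Home cage mice were resting and untrained, so swimming, handling and learning cannot be told apart in the learning groups.

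In the adult mouse, new neurons are born in the subgranular zone of the dentate gyrus. Radial glia-like stem cells give rise to dividing intermediate progenitors, these become migrating neuroblasts, and the neuroblasts mature into granule neurons of the dentate gyrus. The 9 genes mark successive steps of this sequence. Several of them are also made by other cells of the hippocampus: Neurod1 by mature granule neurons, and Calb2 by interneurons and mossy cells. The tissue was bulk RNA, so fewer cells of a type and less RNA per cell cannot be told apart, and a level cannot be assigned to newborn cells.

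The promoters of 3 of the genes are printed as a description: Top2a and Mki67, the pair of proliferation genes, and Sox11, the gene that passed the test after learning. Each run is the 250 bases upstream of the start site, 5′ to 3′ on the gene's strand, from RefSeq on GRCm38.p6. All are on the minus strand: Mki67 at chr7:135716380-135716629, Top2a at chr11:99024190-99024439 and Sox11 at chr12:27342719-27342968. Capitals mark every match, on either strand, to CCAAT, to TTTGAA, to TTCGAA or to the E-box core CANNTG.
Mki67: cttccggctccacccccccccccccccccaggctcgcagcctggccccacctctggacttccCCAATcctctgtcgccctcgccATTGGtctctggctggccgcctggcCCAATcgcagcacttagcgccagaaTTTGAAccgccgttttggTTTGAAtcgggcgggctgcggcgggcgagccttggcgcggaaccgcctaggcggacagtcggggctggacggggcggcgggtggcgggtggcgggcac
Top2a: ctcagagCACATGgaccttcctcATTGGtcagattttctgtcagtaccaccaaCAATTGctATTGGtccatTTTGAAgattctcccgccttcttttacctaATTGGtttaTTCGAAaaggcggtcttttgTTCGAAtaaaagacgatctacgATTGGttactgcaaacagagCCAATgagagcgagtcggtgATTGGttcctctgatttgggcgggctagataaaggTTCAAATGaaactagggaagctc
Sox11: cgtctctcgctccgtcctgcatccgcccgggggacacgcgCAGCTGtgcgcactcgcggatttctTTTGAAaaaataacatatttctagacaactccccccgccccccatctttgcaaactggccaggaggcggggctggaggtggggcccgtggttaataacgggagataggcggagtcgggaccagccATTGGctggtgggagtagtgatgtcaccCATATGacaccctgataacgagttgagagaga
CCAAT boxes and the element TTTGAA, which is known from promoters of cell cycle genes, recur in the proliferation pair. Top2a held 6 CCAAT, 2 TTTGAA, 2 TTCGAA and 3 CANNTG, and the last TTTGAA overlaps the last CANNTG. Mki67 held 3 CCAAT and 2 TTTGAA. Sox11 held 1 CCAAT, 1 TTTGAA and 2 CANNTG. Repeated CCAAT was not particular to the proliferation pair, since Sox4 held 4 and Eomes 2. Dcx held 1 or 0 in its 2 entries, and Neurod1 held 0. Among 32851 promoter windows of this length, 33.8% had at least 1 CCAAT, 2.79% had at least 3 and 1.81% had at least 2 TTTGAA, while 66.2% had a CANNTG. Of the 9 genes, 7 had an entry, and Igfbpl1 and Calb2 were the 2 without. None of the 7 held the cAMP response element TGACGTCA, found in 1.55% of windows. These are matches of letters and not measured binding.

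The number of reads counted on genes lay between 23078094 and 49949281 per mouse, with the highest group median in learning caffeine mice (42497897.5) and the lowest in home cage water mice (30203502.5). Levels were normalised to the scaled library total (CPM). Per kilobase of exon (RPKM), which allows a comparison between genes, Calb2 was highest at 11.2 ± 3.95 (SD, n = 16), followed by Neurod1 at 8.75 ± 1.53, Sox4 at 3.4 ± 0.409, Sox11 at 1.74 ± 0.351, Dcx at 1.59 ± 0.185 and Igfbpl1 at 0.57 ± 0.251. The progenitor gene Eomes (0.156 ± 0.138 RPKM) and the proliferation genes Top2a (0.138 ± 0.0359 RPKM) and Mki67 (0.12 ± 0.0272 RPKM) were lowest. Neighbours that exchanged places between mice were Calb2 over Neurod1 (11 of 16 mice), Sox11 over Dcx (11 of 16), Eomes over Top2a (6 of 16) and Top2a over Mki67 (10 of 16). The other steps of this order held in all 16 mice.

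**Figure D1:**
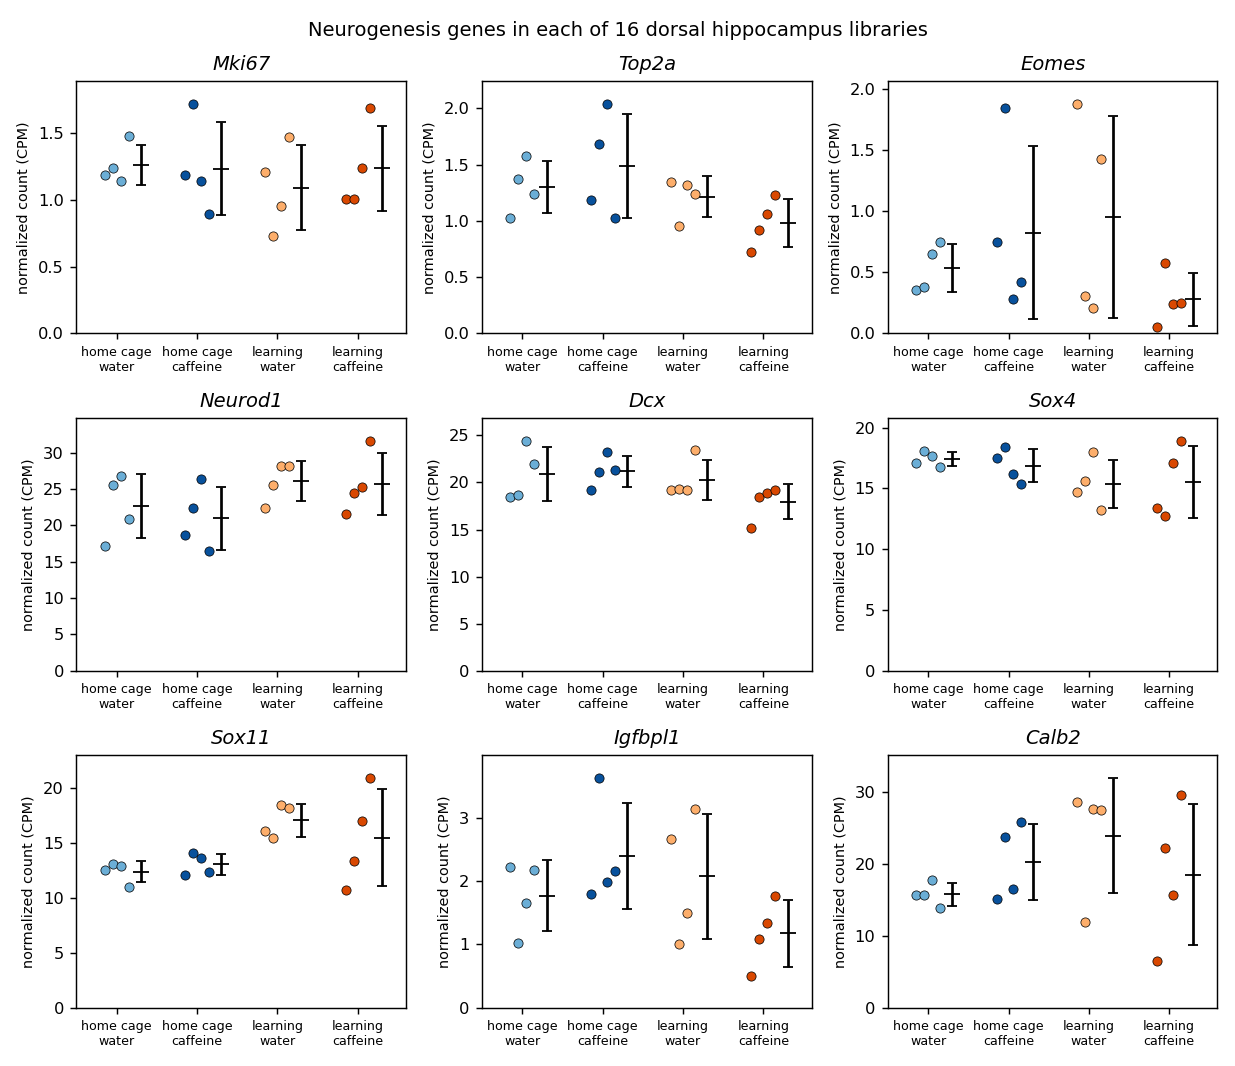
Normalized count (CPM, vertical axes from 0) of each of the 9 genes in each mouse, by group. Points are mice, the horizontal line is the group mean and the bar 1 SD (n = 4). The 4 learning water mice lie above the 4 home cage water mice for Sox11, while Eomes is spread widely within 3 of the groups.

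Sox11 was the gene that rose after learning. It encodes a SoxC transcription factor that is switched on in neuroblasts and immature neurons (ENSMUSG00000063632, chr12:27334264-27342574, minus strand, mm10). In home cage water mice it was at 12.5, 13.1, 12.9 and 11 CPM, and in learning water mice at 16.1, 15.5, 18.5 and 18.2 CPM. In home cage caffeine mice it was at 12.1, 14.1, 13.6 and 12.4 CPM, and in learning caffeine mice at 10.7, 13.4, 17 and 20.9 CPM. Under water the groups did not overlap; under caffeine they did, since 2 of the 4 learning mice lay above all home cage mice and 1 lay below them. Averaged over both treatments, Sox11 was 1.28-fold higher after learning (log2 fold change 0.36, SE 0.10, 95% interval 0.14 to 0.57, adjusted p = 0.0403 by edgeR's quasi-likelihood test). The mean rose from 12.7 ± 0.943 CPM to 16.3 ± 3.17 CPM (SD, n = 8), and 6 of the 8 learning mice lay above all 8 home cage mice (exact permutation test within treatments, two-sided p = 0.0114). A gene was called at an adjusted p under 0.1 over all tested genes, and 7.81% of them were called higher in this comparison, so 1 of 9 is near the background. The Sox11 call was kept in all 16 fits that left out 1 library, with log2 fold changes of 0.28 to 0.44.

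Within each treatment the Sox11 response did not pass the adjusted threshold. Under water its log2 fold change was 0.47 (SE 0.15, adjusted p = 0.187 by edgeR), from 12.4 ± 0.912 to 17.1 ± 1.47 CPM. DESeq2, edgeR on the 8 water libraries alone and a filter of at least 1 count gave adjusted p-values of 0.0828, 0.0666 and 0.0747, which are under the threshold. Under caffeine the log2 fold change was 0.25 (SE 0.14, adjusted p = 0.362 by edgeR). The learning caffeine mice had an SD of 4.43 CPM for Sox11, against 1.47 CPM in learning water mice. The difference between both responses was −0.22 (SE 0.20, 95% interval −0.65 to 0.21, adjusted p = 1.0 by edgeR), so a weaker response under caffeine was not shown. Without learning caffeine mouse 40 the caffeine response was 0.08 and the difference −0.38, and without learning caffeine mouse 22 they were 0.41 and −0.08. Sox4, the other SoxC factor of the list (ENSMUSG00000076431, chr13:28948919-28953713, minus strand), went the other way in value, from 17.1 ± 1.0 to 15.5 ± 2.37 CPM (SD, n = 8), with an average log2 fold change of −0.15 (SE 0.08, adjusted p = 0.27 by edgeR). Of 8 learning mice, 4 lay below every home cage mouse for Sox4 and 1 lay above every one. Its exons share 2616 bases with Gm26735 on the opposite strand, which had 1 to 9 reads against 404 to 851 for Sox4. The strand setting of the counting is not given, so these numbers do not show how many Sox4 reads the overlap affected.

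The proliferation genes were low, at about 1 CPM, and neither passed the test. Mki67 encodes Ki-67, a protein of cycling nuclei (ENSMUSG00000031004, chr7:135689784-135716361, minus strand). It was at 1.19, 1.24, 1.14 and 1.48 CPM in home cage water mice and at 1.19, 1.72, 1.14 and 0.893 CPM in home cage caffeine mice. It was at 1.21, 0.73, 0.959 and 1.47 CPM in learning water mice and at 1.01, 1.01, 1.24 and 1.69 CPM in learning caffeine mice. All 4 groups overlapped, and the largest of the 4 comparisons of 2 groups was −0.22 on the log2 scale (SE 0.24, learning against home cage under water). These Mki67 values rest on 26 to 62 reads per mouse.

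Top2a encodes DNA topoisomerase II alpha, which untangles chromosomes in dividing cells (ENSMUSG00000020914, chr11:98992943-99024189, minus strand). It was at 1.03, 1.37, 1.58 and 1.24 CPM in home cage water mice and at 1.19, 1.68, 2.04 and 1.03 CPM in home cage caffeine mice. After learning it was at 1.35, 0.955, 1.32 and 1.24 CPM under water and at 0.72, 0.921, 1.06 and 1.23 CPM under caffeine. The 2 lowest of the 16 values were in learning caffeine mice and the 2 highest in home cage caffeine mice, but the groups overlapped. The log2 fold change with learning was −0.10 (SE 0.23) under water and −0.58 (SE 0.23, adjusted p = 0.176 by edgeR) under caffeine, and −0.34 (SE 0.16, adjusted p = 0.191 by edgeR) on average.

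Of 29 other cell cycle genes tested, 2 passed the test after learning. Averaged over treatments, Cdc20, an activator of the anaphase-promoting complex, fell by 0.66 on the log2 scale (SE 0.17, adjusted p = 0.0283 by edgeR). Mcm2, a subunit of the replicative helicase, fell by 0.30 (SE 0.08, adjusted p = 0.0332 by edgeR). Cdc20 was at 0.822 ± 0.188 CPM in home cage water and 0.487 ± 0.186 CPM in learning water mice, and at 0.865 ± 0.117 and 0.56 ± 0.0725 CPM in the caffeine groups (SD, n = 4). Of the 29 genes, 23 had a negative log2 fold change, with a median of −0.11 against −0.013 over all genes tested, and 14.5% of all genes were called in either direction. Cdc20 had under 10 counts in 1 mouse, so the filter of at least 10 counts in every library left it untested.

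Eomes was the most variable of the 9 genes. It encodes the T-box factor Tbr2 of intermediate progenitors (ENSMUSG00000032446, chr9:118478212-118486132, plus strand). In home cage water mice it was at 0.357, 0.382, 0.655 and 0.752 CPM and in home cage caffeine mice at 0.752, 1.85, 0.284 and 0.419 CPM. In learning water mice it was at 1.88, 0.309, 0.207 and 1.43 CPM, and in learning caffeine mice at 0.0533, 0.578, 0.241 and 0.246 CPM. High values stood in 1 home cage caffeine and 2 learning water mice, and the coefficient of variation over the 16 mice was 88.3%. Caffeine against water after learning gave a log2 fold change of −1.73 (SE 0.68, unadjusted p = 0.0214, adjusted p = 0.999 by edgeR), with overlapping groups and an exact permutation p of 0.229. Its value was −1.10 without learning water mouse 24 and −2.36 without learning caffeine mouse 27. Reads per mouse ranged from 2 to 82, against 0 to 2 for Gm33460, which shares 118 exon bases with Eomes on the opposite strand.

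Neurod1, a basic helix-loop-helix factor of late progenitors and granule neurons (ENSMUSG00000034701, chr2:79452521-79456751, minus strand), was at a higher level. It was at 17.2, 25.6, 26.8 and 20.9 CPM in home cage water mice and at 18.7, 22.4, 26.4 and 16.5 CPM in home cage caffeine mice. It was at 22.4, 25.6, 28.2 and 28.2 CPM in learning water mice and at 21.5, 24.4, 25.3 and 31.6 CPM in learning caffeine mice. The groups overlapped, although 3 of the 8 learning mice lay above all home cage mice. The average log2 fold change with learning was 0.25 (SE 0.11, 95% interval 0.02 to 0.47, adjusted p = 0.155 by edgeR), and the exact permutation test gave p = 0.0547. Neurod1 was called with a filter of at least 1 count (adjusted p = 0.0929 by edgeR). It was also called without home cage caffeine mouse 14, where its log2 fold change was 0.32, and without learning water mouse 24, where it was 0.28. Its exons share 201 bases with Cerkl on the same strand, which had 105 to 262 reads against 434 to 1262 for Neurod1.

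Dcx encodes doublecortin, a microtubule-binding protein of migrating neuroblasts (ENSMUSG00000031285, chrX:143855842-143933311, minus strand). It was at 18.5, 18.7, 24.4 and 22 CPM in home cage water mice and at 19.2, 21.1, 23.2 and 21.3 CPM in home cage caffeine mice. It was at 19.2, 19.3, 19.2 and 23.5 CPM in learning water mice and at 15.2, 18.5, 18.9 and 19.2 CPM in learning caffeine mice. The learning caffeine mice were all below the home cage caffeine mice (exact permutation p = 0.0286, the smallest that 4 against 4 allows) and all below the learning water mice (p = 0.0286, exact permutation), but in both cases the nearest values are equal at 19.2 CPM after rounding. The log2 fold changes were −0.24 (SE 0.10, adjusted p = 0.209 by edgeR) and −0.18 (SE 0.10, adjusted p = 0.999 by edgeR), so Dcx passed the test in neither comparison. Without learning caffeine mouse 22 they were −0.15 and −0.10, and without learning water mouse 38 the second was also −0.10. Groups did not overlap for 10.9% of all tested genes in the first of these comparisons and for 2.6% in the second.

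Igfbpl1, a secreted protein related to insulin-like growth factor binding proteins, is known as a transcript of neuroblasts (ENSMUSG00000035551, chr4:45809468-45826923, minus strand). It was at 2.22, 1.02, 1.65 and 2.18 CPM in home cage water mice and at 1.79, 3.62, 1.99 and 2.15 CPM in home cage caffeine mice. It was at 2.66, 1.01, 1.5 and 3.13 CPM in learning water mice and at 0.506, 1.09, 1.34 and 1.77 CPM in learning caffeine mice. Under caffeine the learning and home cage mice did not overlap, with a log2 fold change of −0.99 (SE 0.37, adjusted p = 0.16 by edgeR, exact permutation p = 0.0286). It was past the threshold with DESeq2 (adjusted p = 0.0807). Under water the value was 0.23 (SE 0.36), and the difference between the responses was −1.21 (SE 0.52, unadjusted p = 0.0311, adjusted p = 1.0 by edgeR). Markers of the thalamus, which lies below the dorsal hippocampus, stood beside this: in learning against home cage under caffeine 4 of 10 were called lower and 1 higher, where 5.28% of all genes were called. Of the 10, 6 had a negative and 4 a positive value. Those called lower were Zic1 (log2 fold change −1.09, adjusted p = 0.0437 by edgeR), Zic4 (−0.96, adjusted p = 0.0459 by edgeR), Plekhg1 (−0.36) and Synpo2 (−0.34), while Rgs16 was called higher (0.40). Means of Tcf7l2, Lef1 and Slc17a6 were also higher in learning caffeine than in home cage caffeine mice. They went from 3.71 to 4.11, from 3.36 to 4.27 and from 14.7 to 15.2 CPM, so the list did not move in 1 direction. Over the fits without 1 library 0 to 5 of the 10 markers were called, and all 5 calls were lost without home cage caffeine mouse 9. The summed level of the 10 was 109 to 167 CPM in home cage caffeine mice, highest in mouse 9, and 107 to 115 CPM in learning caffeine mice. This sum correlated with Igfbpl1 over the 16 mice at r = 0.67 and rho = 0.69 (permutation p = 0.004 and 0.0041, adjusted p = 0.096 and 0.13 over 126 relations). The r was 0.49 within groups and 0.63 without the 2 mice farthest from the median. The part of these markers in the Igfbpl1 values was not tested. None of the 10 was at 0 in all mice.

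Calb2 encodes calretinin, a calcium-binding protein that newborn granule neurons carry for a short time (ENSMUSG00000003657, chr8:110137502-110168210, minus strand). It was at 15.7, 15.6, 17.8 and 13.9 CPM in home cage water mice and at 15.1, 23.7, 16.5 and 25.8 CPM in home cage caffeine mice. It was at 28.6, 11.9, 27.6 and 27.4 CPM in learning water mice and at 6.45, 22.2, 15.7 and 29.5 CPM in learning caffeine mice. In learning water mice 3 values lay close together above all home cage mice, and the fourth lay below all of them. The log2 fold change with learning was 0.60 (SE 0.33, adjusted p = 0.497 by edgeR) under water and −0.13 (SE 0.33, adjusted p = 0.863 by edgeR) under caffeine.

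Against water, caffeine gave no called gene in this set in either condition, and the background was 0% in both, since edgeR called no gene of the 17830. At an unadjusted p under 0.05 the counts were 0 of 9 at rest and 2 of 9 (Eomes and Igfbpl1) after learning, against 3.57% and 3.93% of all genes. DESeq2 also called 0 of 9 in both, where it called 19 of 21065 genes at rest and 6 of 33352 after learning. With a filter of at least 1 count, edgeR called 34 and 8 of 33354 genes and again 0 of 9. Log2 fold changes at rest ranged from −0.11 for Neurod1 to 0.50 for Eomes with a median of 0.08, and after learning from −1.73 for Eomes to 0.18 for Mki67 with a median of −0.18. The all-gene medians were −0.003 and −0.004. The intervals at rest were narrow for Dcx (−0.19 to 0.23) and Sox4 (−0.29 to 0.20) and widest for Eomes (−0.94 to 1.94). Width did not simply follow abundance. Calb2, the highest per kilobase, had −0.34 to 1.06, while the sparse Mki67 had −0.57 to 0.44 and Top2a −0.31 to 0.65. At rest 0 of 9 genes had groups without overlap, and 1.99% of all genes did.

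Learning against home cage likewise called 0 of 9 genes under water, where 0.97% of all genes were called, and 0 of 9 under caffeine, where 5.28% were. Unadjusted p-values under 0.05 were found for 1 of 9 (Sox11) under water, against 11.8% of all genes, and for 3 of 9 (Top2a, Dcx and Igfbpl1) under caffeine, against 18.8%. Groups did not overlap for 1 of 9 under water (6.99% of all genes) and for 2 of 9 under caffeine (10.9% of all genes). The difference between the learning responses was called for 0 of 9 and for 0% of all genes, with Eomes (−2.23, SE 0.97, adjusted p = 1.0 by edgeR) and Igfbpl1 at an unadjusted p under 0.05. The comparisons share groups: the home cage caffeine mice, for example, enter both the caffeine comparison at rest and the learning comparison under caffeine.

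**Figure D2:**
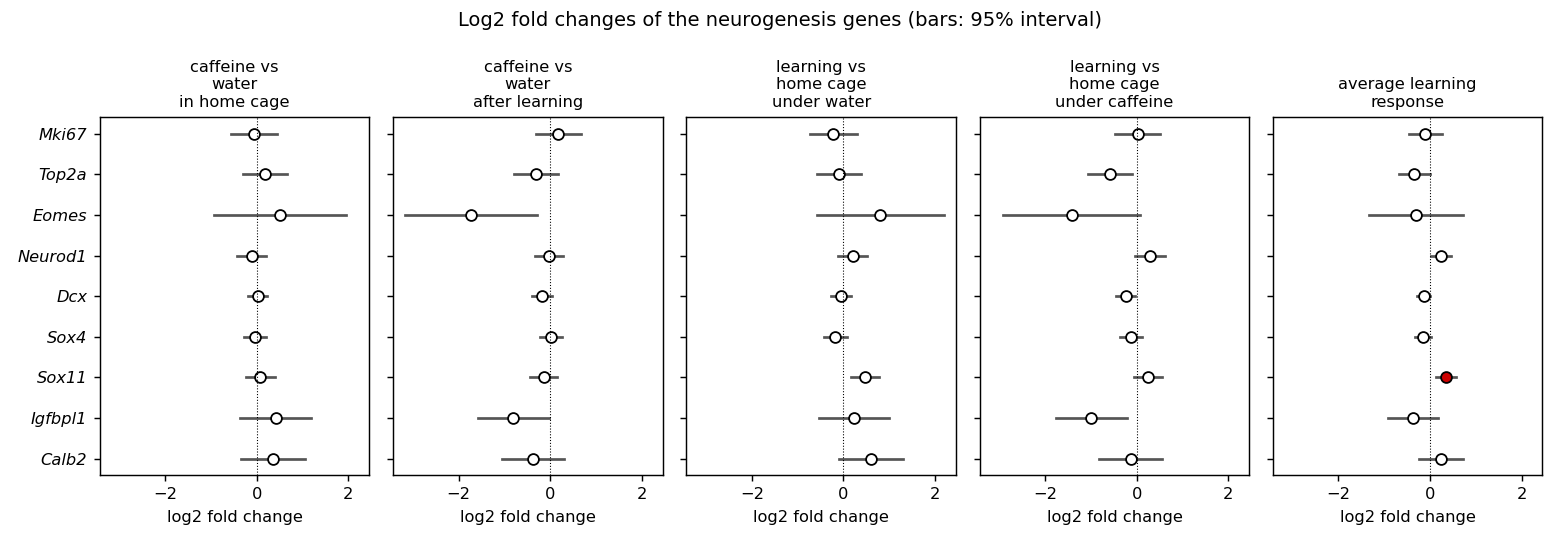
Log2 fold change (horizontal axes) of each of the 9 genes in the 4 comparisons of 2 groups and in the average learning response, with 95% intervals from edgeR. The red point, Sox11 in the average learning response at 0.36, is the only one past the adjusted threshold, and the widest intervals belong to Eomes.

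Learning caffeine mouse 22 was the lowest of all 16 for 6 of the 9 genes: Top2a, Eomes, Dcx, Sox11, Igfbpl1 and Calb2. Over all tested genes, 6.71% were lowest in this mouse. Learning caffeine mouse 40 was the highest for 4 of the 9 (Neurod1, Sox4, Sox11 and Calb2), against 7.3% of all genes. Both belong to the group whose Sox11, Sox4 and Calb2 values had the largest SD, so comparisons with learning caffeine mice carry the gap between these 2 animals. Without mouse 22 the difference in Igfbpl1 under caffeine was still negative, as it was in all 16 fits without 1 library (−1.22 to −0.73).

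The genes also moved together across mice, but not as 1 block. Of the 36 pairs, 6 had an adjusted permutation p under 0.05 for Pearson's r of log2 CPM, each over 16 mice. Eomes and Igfbpl1 were the closest, with r = 0.78 and rho = 0.69 (permutation p = 0.00041 and 0.0043, adjusted p = 0.015 and 0.074). This r was 0.71 after group means were removed, 0.64 and 0.57 without the 2 mice farthest from the median of Eomes or of Igfbpl1, and 0.67 without learning caffeine mouse 22. Neurod1 and Sox11 had r = 0.70 and rho = 0.75 (permutation p = 0.0027 and 0.0012, adjusted p = 0.03 and 0.045), with 0.62 within groups. Without the 2 mice farthest from the median this r was 0.75 by Neurod1 and 0.55 by Sox11. Top2a and Dcx had r = 0.72 and rho = 0.59 (permutation p = 0.0018 and 0.018, adjusted p = 0.03 and 0.16), with 0.58 within groups, and 0.47 or 0.52 without the 2 mice farthest from the median of Top2a or of Dcx.

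The remaining 3 pairs joined Calb2 and Dcx to the rest. Igfbpl1 and Calb2 had r = 0.69 and rho = 0.49 (permutation p = 0.0034 and 0.059, adjusted p = 0.03 and 0.26), and r was 0.43 or 0.49 without the 2 mice farthest from the median of Igfbpl1 or of Calb2. Dcx and Igfbpl1 had r = 0.67 and rho = 0.50 (permutation p = 0.0049 and 0.053, adjusted p = 0.034 and 0.26), and r without such mice was 0.59 or 0.48, by Dcx or by Igfbpl1. Sox11 and Calb2 had r = 0.65 and rho = 0.66 (permutation p = 0.0057 and 0.0062, adjusted p = 0.034 and 0.074), and r was 0.54 or 0.46, by Sox11 or by Calb2. Without learning caffeine mouse 22, 0 of 36 pairs passed, without learning caffeine mouse 40 there were 3, and without learning water mouse 38 there were 2, so the count rests on single animals. Mki67 and Top2a, both markers of dividing cells, had r = 0.43 and rho = 0.41 (permutation p = 0.096 and 0.11, adjusted p = 0.22 and 0.29), with r = 0.55 within groups. Without the 2 mice farthest from the median this r was 0.23 by Mki67 and 0.56 by Top2a.

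**Figure D3:**
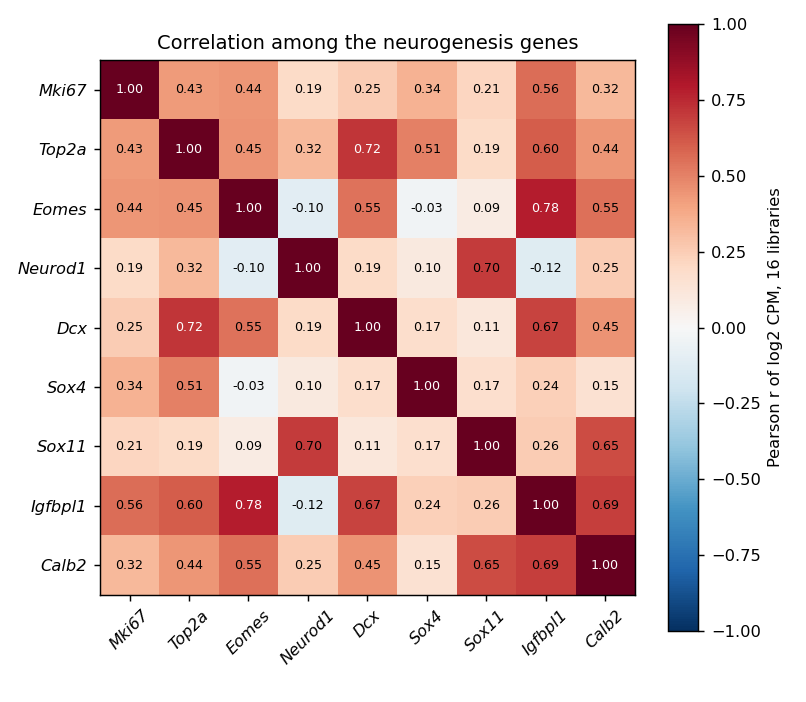
Pearson r of log2 CPM over 16 mice for each pair of the 9 genes, as colour and printed value. Eomes and Igfbpl1 (0.78), Top2a and Dcx (0.72) and Neurod1 and Sox11 (0.70) are the closest pairs, and Neurod1 is near 0 with Eomes and Igfbpl1.

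Set against the summed level of 14 marker lists, 2 of the 126 relations had an adjusted p under 0.05 for both coefficients, and 1 more had it for rho alone. Neurod1 followed the markers of mature granule neurons of the dentate gyrus (r = 0.87, rho = 0.90, permutation p = 2e-05 and 3e-05, adjusted p = 0.0025 and 0.0038), with r = 0.89 within groups and 0.85 without the 2 farthest mice. Their summed level was 674 to 992 CPM in home cage water, 618 to 1040 CPM in home cage caffeine, 725 to 1090 CPM in learning water and 757 to 1040 CPM in learning caffeine mice. None of these 11 markers was called in the average learning response, and their median log2 fold change was 0.20, against 0.25 for Neurod1 itself. Sox11 had r = 0.56 and rho = 0.62 with the same markers (permutation p = 0.026 and 0.012, adjusted p = 0.36 and 0.19), and r was 0.46 without the 2 farthest mice. The relation that passed for rho alone joined Neurod1 to the oligodendrocyte precursor markers with a negative sign (r = −0.71, rho = −0.77, permutation p = 0.002 and 0.00066, adjusted p = 0.085 and 0.028), and r was −0.91 without the 2 farthest mice. The part of the granule neuron and precursor levels in the Neurod1 and Sox11 values was not tested. Eomes had r = 0.67 with the thalamus markers (rho = 0.63, permutation p = 0.0041 and 0.011, adjusted p = 0.096 and 0.19) and r = 0.67 with the radial glia-like stem cell genes (rho = 0.65, permutation p = 0.0045 and 0.0081, adjusted p = 0.096 and 0.19). Without the 2 farthest mice these r were 0.56 and 0.36.

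Top2a followed the summed cell cycle genes (r = 0.83, rho = 0.85, permutation p = 9e-05 and 0.00012, adjusted p = 0.0057 and 0.0076), with r = 0.78 within groups and 0.91 without the 2 farthest mice. Mki67 had r = 0.50 and rho = 0.36 with the same sum (permutation p = 0.049 and 0.16, adjusted p = 0.51 and 0.54), and r was 0.51 without the 2 farthest mice. The cell cycle sum was 101 to 109 CPM in home cage water, 93.6 to 116 CPM in home cage caffeine, 97.3 to 107 CPM in learning water and 93.8 to 106 CPM in learning caffeine mice, so the groups overlapped. Abundant genes weigh most in this sum: group means were 18.5 to 20.6 CPM for Mcm6, 17.3 to 19.1 CPM for Pcna and 0.292 to 0.355 CPM for Cdk1. The relation was not particular to Top2a, since Neurod1 also had r = 0.78 within groups with the sum (0.34 over all mice). Within groups Top2a had r = 0.70 with the mature granule neuron markers (0.43 over all mice) and 0.84 with Neurod1 (0.32).

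**Figure D4:**
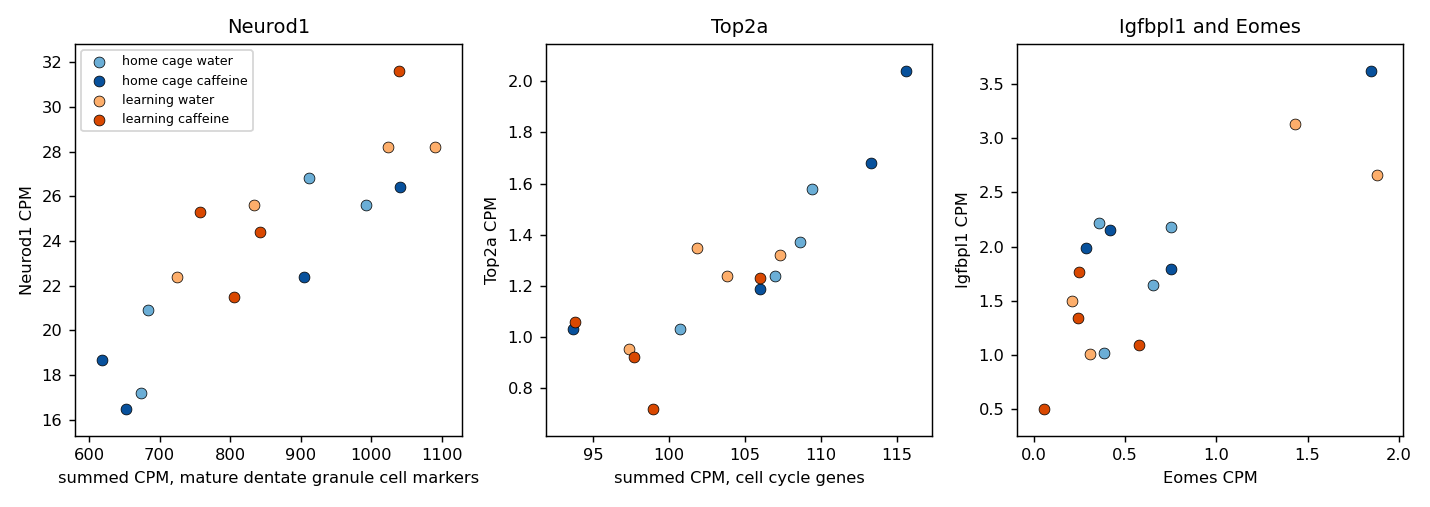
Level (CPM) of Neurod1 against the summed mature granule cell markers, of Top2a against the summed cell cycle genes, and of Igfbpl1 against Eomes, 1 point per mouse, coloured by group. The mice line up along a rising diagonal in the first 2 panels (r = 0.87 and 0.83 on log2 values), and 3 mice high in both genes stand apart in the last.

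The genes with the most similar pattern over the 16 mice, among 14587 genes searched, are given as a description. Closest to Neurod1 were Dcaf1 (r = 0.95), Chic1 (0.94) and Ppp1r12b (0.94), and closest to Sox11 were Zfp12 (0.91), Erlin1 (0.90) and Axin1 (0.89). Closest to Eomes were Ebf3 (0.89), Ctxn3 (0.84) and Rbpms2 (0.83), and to Igfbpl1 Zic5 (0.89) and Zic2 (0.88). Closest to Dcx was Bex4 (0.84), to Top2a Scfd2 (0.83), to Mki67 Fbxo22 (0.80), to Calb2 Thap11 (0.78) and to Sox4 AA414768 (0.73). These are the highest of many values and share libraries and depth, so no test goes with them.

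Genes of the steps before and around the 9 were read from lists of the same lineage. Of 11 tested radial glia-like stem cell genes, 0 were called higher and 4 lower in the average learning response, with a median of −0.07. Over all genes 14.5% were called in either direction and 7.81% were called higher, and the median was −0.013. Sox2, a stem cell transcription factor that astrocytes also express, fell by 0.31 on the log2 scale (SE 0.05, adjusted p = 0.00282 by edgeR). It was at 35.4 ± 2.64 CPM in home cage water, 37.6 ± 1.56 CPM in home cage caffeine, 30.8 ± 2.69 CPM in learning water and 28.2 ± 2.71 CPM in learning caffeine mice (SD, n = 4). Fabp7, a fatty acid-binding protein of radial glia and astrocytes, fell by 0.38 (SE 0.12, adjusted p = 0.0529 by edgeR). Hopx, a marker of quiescent stem cells, fell by 0.20 (SE 0.07, adjusted p = 0.0867 by edgeR). Leaving out single libraries kept the Sox2 call in 16 of 16 fits, that of Fabp7 in 14 and that of Hopx in 5. The Fabp7 call was lost without learning water mouse 33 or 36.

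Under caffeine alone, Fabp7 fell by 0.72 on the log2 scale (SE 0.16, adjusted p = 0.0298 by edgeR), from 27 ± 2.08 to 16.4 ± 4.57 CPM, and Sox2 fell by 0.41 (SE 0.08, adjusted p = 0.00987 by edgeR). Both calls were kept in 16 of 16 fits without 1 library. Under water 0 of the 11 stem cell genes were called. Fabp7 was there at 21.8 ± 0.933 CPM in the home cage and 21.1 ± 4.88 CPM after learning (SD, n = 4). The difference between the responses was called for 0 of 11, so a difference between treatments was not shown. In caffeine against water at rest, 0 of the 11 were called and 1 had a negative value, with a median of 0.14. Nestin (Nes) was not called, at 12.8 ± 1.7 and 16.3 ± 1.62 CPM in the home cage and at 14.7 ± 1.76 and 14.9 ± 3.0 CPM after learning, under water and caffeine respectively (SD, n = 4).

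Of 22 neuroblast and immature neuron genes outside the 9, 2 were called higher after learning and 0 lower, with a median of 0.00. Over all genes 7.81% were called higher, so this count is near the background. Bhlhe22, a factor of developing and mature excitatory neurons, rose by 0.36 on the log2 scale (SE 0.08, adjusted p = 0.00914 by edgeR), from 105 ± 8.71 to 130 ± 15.1 CPM under water and from 99.9 ± 16.2 to 132 ± 14.8 CPM under caffeine (SD, n = 4). Its call was kept in 16 of 16 fits without 1 library. Chd7, a chromatin remodeller, rose by 0.19 (SE 0.07, adjusted p = 0.089 by edgeR), a call kept in 7 of 16 such fits. Tubb3, the neuronal tubulin of young and mature neurons, was not called, at 174 to 233 CPM in home cage water, 178 to 221 CPM in home cage caffeine, 186 to 212 CPM under learning and water, and 184 to 207 CPM under learning and caffeine.

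Markers of other cells that the dissected tissue could hold were counted in the same way. Among 5 tested markers of subventricular zone neuroblasts, 0 were called in any comparison, and their sum was 10.6 to 14.4, 9.82 to 14.9, 12.2 to 14.2 and 10.2 to 13.3 CPM in the 4 groups. None of 12 interneuron markers, 5 tested Cajal-Retzius cell markers, 9 oligodendrocyte precursor markers or 6 ependymal markers was called in the average learning response, and 1 of 6 mossy cell markers was higher (Glipr1, 0.50, adjusted p = 0.0576 by edgeR). Of 10 choroid plexus markers, 9 were called lower after learning on average over treatments. Under water 6 were called lower (0.97% of all genes called) and under caffeine 0 (5.28%), with 10 and 9 negative values. Their summed levels were 311 to 2390 CPM in home cage water and 192 to 507 CPM in home cage caffeine mice. After learning they were 165 to 440 CPM under water and 116 to 205 CPM under caffeine. In the average learning response 14.5% of all genes were called in either direction and 7.81% were called higher. Of 6 microglia markers 3 were lower there, and of 6 endothelial markers 1 was lower. The part of these cells in the values of the 9 genes was not tested.

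**Figure D5:**
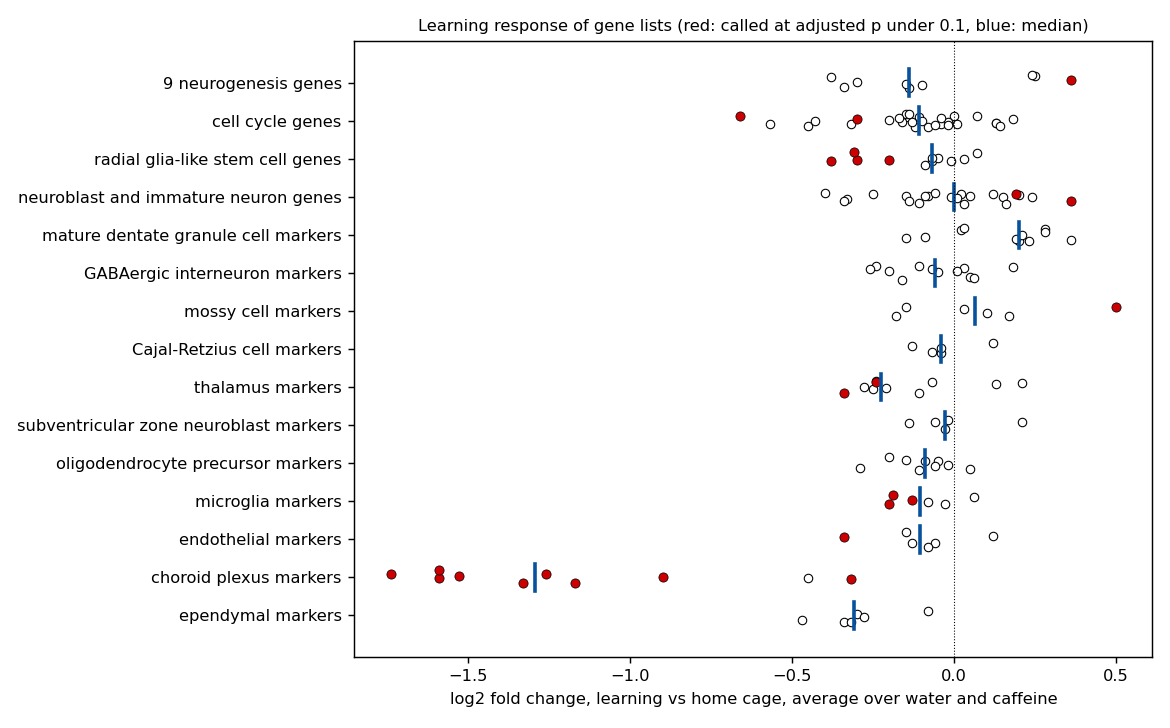
Average log2 fold change after learning, taken over water and caffeine mice, for the 9 neurogenesis genes and each marker list, 1 point per gene. Red points passed the adjusted threshold and blue bars are medians; the 9 genes have a median of −0.14 with Sox11 called higher, 4 radial glia-like genes are called lower, and choroid plexus markers lie farthest to the left at a median of −1.29.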

How the data were processed

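RNA-Seq of the dorsal hippocampus of 16 mice was analysed. The authors deposited raw counts per Ensembl gene (release 90), not normalized and not pooled: TruSeq Stranded mRNA libraries, single-end reads of 50 bases, mm10, STAR and Bowtie 2, uniquely aligned reads, HTSeq-count 0.6.1p1 in union mode. The strand setting of the counting is not given in the sources used here, so counts of overlapping genes are uncertain. A low count of the other gene does not show that few reads were affected. Gene positions and lengths are from GENCODE M21.

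Tests used R 4.3.3 and edgeR 4.0.16: TMM scaling, filterByExpr, 1 mean per group over 16 libraries, the quasi-likelihood test, and Benjamini-Hochberg adjustment over 17830 genes, called at an adjusted p under 0.1, the threshold the study used with DESeq2. CPM is per scaled library total and RPKM is CPM per kilobase of exon. Log2 CPM for correlations had a prior count of 2, and correlations used 100000 permutations. Exact permutation tests of CPM were two-sided. Code was tested on simulated data. Replicates are separate mice. Alternatives were DESeq2 1.42.0 (its size factors, and its Wald test), other count filters, a threshold of 0.05, the 8 libraries of a comparison, and each library left out; those for levels, correlations and marker lists were chosen after seeing the data. Genes named are the 9, called genes of the lists (up to 4 measured ones otherwise) and the 3 genes most correlated with each of the 9. Members and lists were chosen with earlier results of these data known. Nes and Tubb3 were named as familiar markers after their values were seen, and for 5 of the 9 genes only the closest correlated gene is printed. Some genes that the rule names are not reported here.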

Additional observations from a re-analysis of the deposited data

Results flagged for a closer look

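In 36 sets of 4 values (9 genes in 4 groups), 3 held a mouse set apart from the other 3 by more than Dixon's 95% critical share of the group's range. Chance alone gives about 1 in 20 such sets. For Dcx, learning water mouse 38 was at 23.5 CPM while the other 3 mice were at 19.2 to 19.3 CPM, a gap of 0.974 of the range. Also for Dcx, learning caffeine mouse 22 was at 15.2 CPM while the others were at 18.5 to 19.2 CPM, a gap of 0.835 of the range. For Calb2, learning water mouse 33 was at 11.9 CPM while the others were at 27.4 to 28.6 CPM, a gap of 0.929 of the range. The cause was not tested in any of the 3 cases.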

How the results depend on the processing

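In learning under water, members called went from 0 to 1 with DESeq2's Wald test, with a filter of at least 1 count, with edgeR on 8 libraries, and without learning caffeine mouse 22 or 40 (range 0 to 1 over the left-out libraries), and it was Sox11 each time. Over all tested genes 173 were called as reported, and 428, 290 and 85 in the first 3 of these fits. Under caffeine, DESeq2 called 1 member (Igfbpl1) against 0, while it called 1569 genes in all against 942. In the average learning response, members called went from 1 to 2 with a filter of at least 1 count and without home cage caffeine mouse 14 or learning water mouse 24 (range 1 to 2), with Neurod1 added. Pairs of members past the adjusted threshold ranged from 0 to 9 over the left-out libraries, against 6. The cause was not tested. Under the other alternatives the counts of called members were as reported.

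Signs turned in some fits that left out 1 library, never under another alternative, and only for log2 fold changes that were not called. The ranges for caffeine at rest were −0.23 to 0.06 (Mki67), −0.03 to 0.32 (Top2a), −0.14 to 0.80 (Eomes) and −0.04 to 0.10 (Dcx). After learning, caffeine gave −0.13 to 0.06 (Neurod1), −0.09 to 0.10 (Sox4) and −0.31 to 0.00 (Sox11). Learning under water gave −0.18 to 0.02 (Top2a), −0.12 to 0.05 (Dcx) and −0.02 to 0.46 (Igfbpl1), and under caffeine −0.14 to 0.20 (Mki67) and −0.43 to 0.17 (Calb2). The difference between responses gave −0.02 to 0.22 (Neurod1) and −0.04 to 0.14 (Sox4), and average learning −0.62 to 0.03 (Eomes). Average caffeine gave −0.03 to 0.14 (Mki67), −0.17 to 0.00 (Top2a), −0.07 to 0.03 (Sox4), −0.12 to 0.04 (Sox11) and −0.16 to 0.14 (Calb2). No paired analysis was possible because the groups share no replicate numbers. Depth limits Eomes, with 2 to 82 reads per mouse, and Mki67, with 26 to 62.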
